A study of Mus musculus with 8 samples.

Results

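The genes described here are 57 mouse genes for regulators of embryonic development, 51 transcription factors and 6 secreted ligands of the BMP and Wnt families, that are known Polycomb targets in stem cells. They were chosen by name, and a gene was taken as measured when a non-control probe of the array carried a RefSeq accession of that gene. This held for 56 of the 57, with 70 probes, out of 32970 genes and unnamed transcripts on the array; Nkx2-9 had no such probe. They were measured in HSPCs, the blood stem and progenitor cells of the mouse, here lineage-depleted marrow of femur and tibia from 4 mice of a mixed C57Bl/6 and 129SvJ strain. All 4 mice were Runx1 Δ/Δ, so cells of both groups carried the same deletion of Runx1, a transcription factor of blood formation; the ages of the mice and how the deletion was driven are not given in the sources used here. The cells were grown for 2 days in serum-free medium with 4 cytokines, IL-3 at 10 ng/ml, SCF at 50 ng/ml, and IL-11 and Flt3 ligand at 100 ng/ml each. From each mouse 1 culture then received a retrovirus with a control shRNA and 1 a retrovirus with an shRNA against Pcgf1. Puromycin (5 µg/ml) was added after 24 h and kept for 36 h, and 400 ng of total RNA per culture went onto a one-colour Agilent array, which gave 4 arrays per group.

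Polycomb complexes keep developmental genes off in cells of other lineages. PRC1.1 is the variant form of Polycomb repressive complex 1 that holds Pcgf1. Its Kdm2b subunit binds unmethylated CpG dinucleotides through a CXXC zinc finger, and its Ring1 or Rnf2 subunit puts ubiquitin on histone H2A. PRC2 then adds methyl groups to lysine 27 of histone H3, which canonical PRC1 reads through its Cbx subunits. Pax, Sox, T-box, forkhead and homeobox genes with CpG-rich promoters are classical targets of this system, and most of them have no known role in blood cells. The comparison asks whether less Pcgf1 changes transcripts in Runx1 Δ/Δ progenitors, and for these genes whether any that were off came on.

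The promoters of 3 members are shown because CpG is the feature that Kdm2b binds: Foxc1, the only gene of the set whose detection changed by the rule for gained genes, Sox2, which was not above background on any array, and Msx1, which was above background on every array. Each sequence is the 250 bases before the RefSeq start of the gene on assembly GRCm38.p6, 5′ to 3′ on the strand of the gene, with each CG in capitals.
Foxc1 (chr13:31806396-31806645, plus strand): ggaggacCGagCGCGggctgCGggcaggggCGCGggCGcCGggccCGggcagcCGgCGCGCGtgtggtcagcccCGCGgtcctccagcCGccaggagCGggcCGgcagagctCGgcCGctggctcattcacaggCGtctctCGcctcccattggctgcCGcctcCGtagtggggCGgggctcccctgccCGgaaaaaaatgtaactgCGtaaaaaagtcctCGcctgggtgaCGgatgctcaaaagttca
Sox2 (chr3:34649745-34649994, plus strand): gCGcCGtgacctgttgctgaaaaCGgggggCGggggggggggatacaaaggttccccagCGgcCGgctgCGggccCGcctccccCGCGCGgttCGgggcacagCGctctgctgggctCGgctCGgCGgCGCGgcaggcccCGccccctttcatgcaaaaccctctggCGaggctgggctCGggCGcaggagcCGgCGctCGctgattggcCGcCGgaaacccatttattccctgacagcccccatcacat
Msx1 (chr5:37824586-37824835, minus strand): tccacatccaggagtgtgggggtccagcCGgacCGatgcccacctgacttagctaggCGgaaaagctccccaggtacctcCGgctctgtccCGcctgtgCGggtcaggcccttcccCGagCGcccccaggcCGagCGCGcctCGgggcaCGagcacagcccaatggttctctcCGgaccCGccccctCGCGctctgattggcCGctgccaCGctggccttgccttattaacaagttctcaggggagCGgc
The motif searched was CG, which reads the same on both strands. The Foxc1 window held 29 CG and 70.8% G and C, the Sox2 window 27 and 72.0%, and the Msx1 window 20 and 68.0%. Among the 32851 windows of the same length in the RefSeq promoter collection, 6.8% held at least as many CG as Foxc1, 8.6% as many as Sox2 and 17.9% as many as Msx1, and the median was 6. The collection held a promoter for 37 of the 57 genes (64.9%), below the 80% set for such a comparison, so a check of CG content over the whole set is void.

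The arrays could be compared, and the knockdown was present. Of the 43379 gene spots, 54.8% to 62.0% passed the scanner software's flag for signal well above background, by array, and 0 were saturated. The processed intensity had a 75th percentile of 519 to 854. The number of arrays limits the precision. Signals are given as log2 of the processed intensity with the 75th percentile of each array at 0; on this scale the lowest signals called well above background were −5.94 to −5.22. Pcgf1 read −0.23 ± 0.18 (SD, n = 4) in the controls and −1.59 ± 0.17 (n = 4) after knockdown, which left 39.0% of the transcript (log2 change −1.36, SE 0.12, limma adjusted p 0.0197). The call was lost without mouse 1, 2 or 3 (adjusted p 0.116, 0.337 and 0.0939), while the size stayed between −1.38 and −1.34. All 8 genes listed as markers of haematopoietic progenitors, among them Kit, Flt3, Ptprc and Cd34, were above background on all 8 arrays. Cd34 rose (0.94, limma adjusted p 0.0250). The neutrophil genes S100a8 and S100a9 were above background on all 8 arrays too, so detection of the list does not show that the cultures held progenitors alone. Over all genes 132 passed without a block, Bcorl1, Acvr2b and Sox4 among them. Leaving out mouse 1, 2 or 3 left 1, 1 and 0 genes that passed, and leaving out mouse 4 left 339.

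Most of the developmental regulators were not detected in either group, and the number detected showed no consistent change between mice with knockdown of Pcgf1. Of the 56 measured genes, 31 were not well above background on any of the 8 arrays (55.4%, against 21.3% of the 17016 genes with a symbol and 35.1% of all 32970), 11 were above background on all 8 (19.6%, against 66.3% and 49.7%), and 14 were above background on some. The number above background per array was 21, 14, 17 and 16 with the control shRNA and 18, 17, 16 and 19 with the Pcgf1 shRNA in mice 1 to 4. The means were 17.0 ± 2.94 and 17.5 ± 1.29 (SD, n = 4 each). The group with less Pcgf1 lay within the range of the controls, and the count rose in mice 2 and 4 and fell in mice 1 and 3. The share of all genes with a symbol above background moved the same way in each mouse, from 72.8% to 71.0% in mouse 1, 68.3% to 71.0% in mouse 2, 74.4% to 70.1% in mouse 3 and 70.5% to 72.2% in mouse 4.

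**Figure D1:**
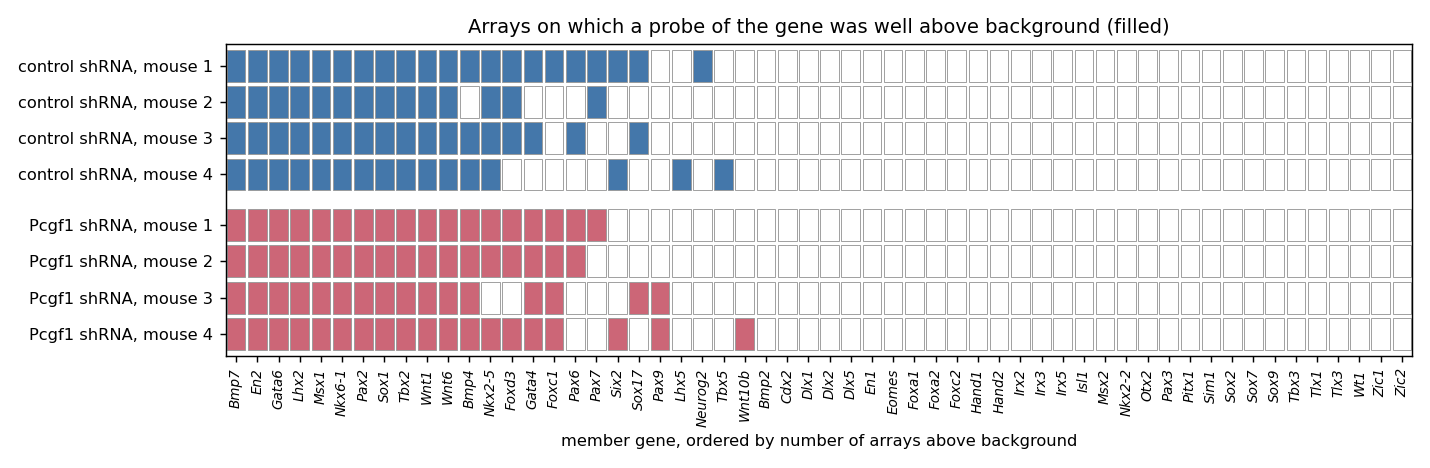
Each column is 1 of the 56 measured genes and each row 1 array; a filled square means that at least 1 probe of the gene was well above background there (blue, control shRNA; red, Pcgf1 shRNA). The 11 genes on the left are filled on all 8 arrays, the 31 on the right on 0, and Foxc1 is filled on 1 control array and on 4 with the Pcgf1 shRNA.

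The 31 undetected genes covered most families. They were 15 of the 22 measured homeobox genes, all 3 zinc finger genes (Wt1, of kidney and gonad, and Zic1 and Zic2, of the neural tube), 3 of 4 basic helix-loop-helix genes (Hand1 and Hand2, of the heart, and Sim1, of the hypothalamus), 3 of 5 forkhead genes (Foxa1 and Foxa2, pioneer factors of endoderm, and Foxc2), 3 of 5 SOX genes (Sox2, of pluripotent and neural stem cells, Sox7 and Sox9), 2 of 4 T-box genes (Tbx3 and Eomes), Pax3, and the ligand gene Bmp2. The homeobox genes among them were Cdx2, Nkx2-2, Tlx1, Tlx3, Dlx1, Dlx2, Dlx5, Otx2, Irx2, Irx3, Irx5, Isl1, Msx2, En1 and Pitx1. Tlx1 and Tlx3, which act as oncogenes in T cell leukaemia, were thus undetected as well.

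The 37 probes of these 31 genes gave processed intensities of 1.89 to 25.5 (median 3.31) and scaled log2 signals of −8.25 to −5.72. The upper ends come from different probes, that of Otx2 for intensity and that of Tbx3 for log2 signal. Values this low carry no order between arrays. The 153 spots of a probe with no target gave a 95th percentile of 2.74 to 4.93 across the arrays. The intensity of the 37 probes exceeded the 95th percentile of the same array in 31 of 148 values with the control shRNA and in 15 of 148 with the Pcgf1 shRNA. Over the 4234 probes of all 3624 undetected genes with a symbol the shares were 25.6% and 21.2%. The counts by array were 6, 4, 13 and 8 in the controls of mice 1 to 4 and 8, 2, 3 and 2 after knockdown; the control of mouse 3, with the highest count, also had the lowest 95th percentile (2.74), and mouse 1 went the other way. On the more lenient flag of the software, positive and significant against the local background, 22 of the 31 genes had at least 1 array and 9 had 0. Values with the lenient flag numbered 38 of 148 (25.7%) in the controls and 21 of 148 (14.2%) after knockdown, where the probes of all undetected genes with a symbol had 30.1% and 27.4%. These differences were not tested.

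A gene was called gained when it was above background on at least 3 of 4 arrays with the Pcgf1 shRNA and on at most 1 of 4 control arrays, and lost in the reverse case. By this rule 1 of 56 members was gained (Foxc1) and 0 were lost. Over all 32970 genes 0.291% were gained and 0.558% were lost, and over the genes with a symbol 0.288% and 0.447%. The share of the members was 1.79%, which is a single gene.

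Foxc1 (chromosome 13, 31806646 to 31810635) encodes a forkhead factor of mesenchyme, eye and heart. Its intensity was 13.4, 14.0, 8.11 and 12.9 on the control arrays of mice 1 to 4 and 18.3, 15.5, 18.9 and 23.6 with the Pcgf1 shRNA, before scaling between arrays. These groups did not overlap. The spot was called above background on the control array of mouse 1 only and on 4 of 4 arrays with the Pcgf1 shRNA. The probe is spotted once per array. Before scaling, the 16388 tested genes above background on all arrays had a median log2 change of 0.19. The share of genes whose groups did not overlap before scaling was not counted, so the separation of Foxc1 before scaling is not read as a result. After scaling the log2 signals were −5.56, −5.21, −6.15 and −5.77 against −4.89, −5.44, −5.25 and −5.18, and the groups overlapped, with mouse 2 lower rather than higher. The log2 change was 0.48 (SE 0.20, 95% interval 0.01 to 0.95, limma adjusted p 0.397), higher in 3 of 4 mice, and it was 0.21 within the first slide (mice 1 and 2) and 0.75 within the other. Foxc1 entered the test only through its detection with the Pcgf1 shRNA, so the estimate and its interval are biased toward a rise. With normexp background correction, run with an offset of 50, the log2 change was −0.04 (limma adjusted p 0.911). The offset is larger than every intensity of Foxc1 and shrinks the log2 changes of dim probes. That fit therefore cannot show whether the change depends on background correction. The detection call of Foxc1 thus changed while its change did not pass the test, and its signals lay near the lowest ones called above background. When a mouse was left out, the rule was loosened to fit 3 arrays per group (at least 2 arrays against at most 1, differing by at least 2), so both the mouse and the threshold changed. It then took 3 members without mouse 1 (Foxc1, Pax9 and Gata4; 141 of the 17016 genes with a symbol), 2 without mouse 2 (Foxc1 and Pax9; 45 genes), 2 without mouse 3 (Foxc1 and Gata4; 168 genes) and Foxc1 alone without mouse 4 (67 genes).

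**Figure D2:**
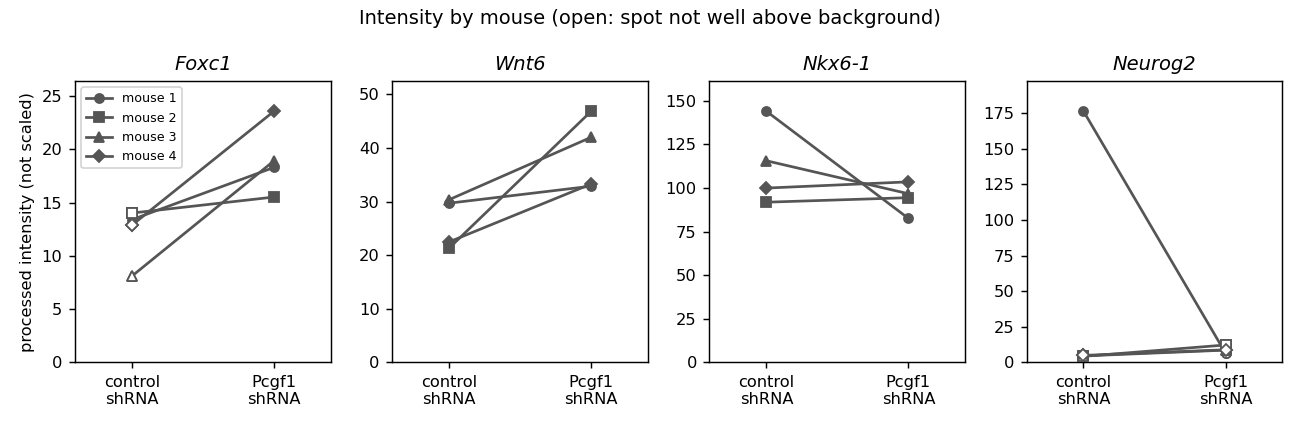
Processed intensity, not scaled between arrays, of 4 members by mouse, each line joining the control and the Pcgf1 shRNA culture of 1 mouse; open symbols are spots not well above background, and each panel has its own axis from 0. Foxc1 runs from 8.11 to 14.0 with the control shRNA and from 15.5 to 23.6 with the Pcgf1 shRNA, and Neurog2 stands at 176.5 on a single control array.

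Gata4 and Pax9 came closest to Foxc1. Gata4, a GATA factor of heart and endoderm, was above background on 2 control arrays and on 4 with the Pcgf1 shRNA. Its intensities overlapped, at 23.6, 19.0, 26.7 and 19.3 against 22.2, 24.9, 22.7 and 22.2, and its log2 signals were −4.74, −4.77, −4.44 and −5.19 against −4.62, −4.76, −4.99 and −5.27. The log2 change was −0.12 (95% interval −0.56 to 0.31, limma adjusted p 0.847). The other probe of Gata4 was above background on 0 of 8 arrays. Pax9, which patterns pharyngeal pouches and teeth, was above background on 0 control arrays and on the Pcgf1 shRNA arrays of mice 3 and 4. Its intensity was 6.52, 3.29, 3.85 and 7.33 on the control arrays and 2.60, 3.42, 24.3 and 36.1 with the Pcgf1 shRNA. Mice 1 and 2, whose arrays shared 1 slide, thus had no rise, while mice 3 and 4, on the other slide, did. Wnt10b, a Wnt ligand of bone and fat, was above background on 1 array, that of the Pcgf1 shRNA in mouse 4 (intensity 18.9, against 10.9 in the control of the same mouse).

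Detection also ran in the other direction: of the 14 members detected on some arrays only, 7 were above background on more control arrays, 5 on more arrays with the Pcgf1 shRNA and 2 on equal numbers. Of the 2103 genes with a symbol detected on some arrays only, 47.3% were above background on more control arrays, 36.5% on more with the Pcgf1 shRNA and 16.2% on equal numbers. Neurog2, a proneural factor, read an intensity of 176.5 on the control array of mouse 1 and 4.25 to 12.2 on the other 7 arrays. Pax7, the factor of muscle satellite cells, read 105 on the control array of mouse 2 and 10.8 to 19.9 on the other 7. Lhx5, a LIM homeobox factor of the forebrain, read 31.1 on the control array of mouse 4 and 2.10 to 3.19 elsewhere. Each of these 3 probes is spotted once per array, so a single spot carries the value. The same holds for the probes of Foxc1 and Pax9 and for the detected probe of Gata4. Tbx5, of heart and forelimb, was above background on 1 control array, and Six2, of kidney progenitors, and Sox17, of endoderm and endothelium, on 2 control arrays and 1 with the Pcgf1 shRNA. Pax6, of eye and brain, was above background on 2 arrays of each group and Foxd3, of neural crest, on 3 of each.

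Probes of the same gene often differed. Among the 10 members with more than 1 probe, 4 were undetected by every probe (Sox9, Hand2, Irx2 and Zic1), and in 5 at least 1 probe was above background on some array while another was on 0 (Pax6, Gata4, Gata6, Sox17 and Tbx5). The probes of Gata6, a GATA factor of endoderm, were above background on 8, 2 and 0 of 8 arrays. For the tests the probe with the highest mean signal was used.

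A change was tested for the 15 members with signal above background throughout 1 or both groups. Of the 15, 0 passed an adjusted p of 0.05 in either direction with limma, against 0.596% of 17293 genes that passed as higher and 0.168% as lower (0.763% in all). The adjusted p values lay between 0.290 and 0.878, and 3 of 15 had an unadjusted p under 0.05 (Nkx6-1 and Bmp7 lower, Foxc1 higher), where 12.2% of all genes did. With mouse as a block 0 passed as well (2.91% of all genes passed as higher and 2.42% as lower, 5.33% in all), the lowest adjusted p was 0.0527 (Nkx6-1), and 6 had an unadjusted p under 0.05, where 23.5% of all genes did. These 6 were Nkx6-1, Bmp7, Msx1 and Pax2, which were lower, and Foxc1 and Wnt6, which were higher. Without the filter on dim probes, all 56 members entered the fit and 0 passed (lowest adjusted p 0.212); 0 were higher and 5 lower at an unadjusted p under 0.05, where 6.67% of 32969 genes were in either direction. Foxc1, Gata4 and Bmp4 entered the test only through their detection with the Pcgf1 shRNA and Nkx2-5 only through that with the control shRNA. Such selection favours a rise in Foxc1, so its unadjusted limma p under 0.05 is not read as a result.

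**Figure D3:**
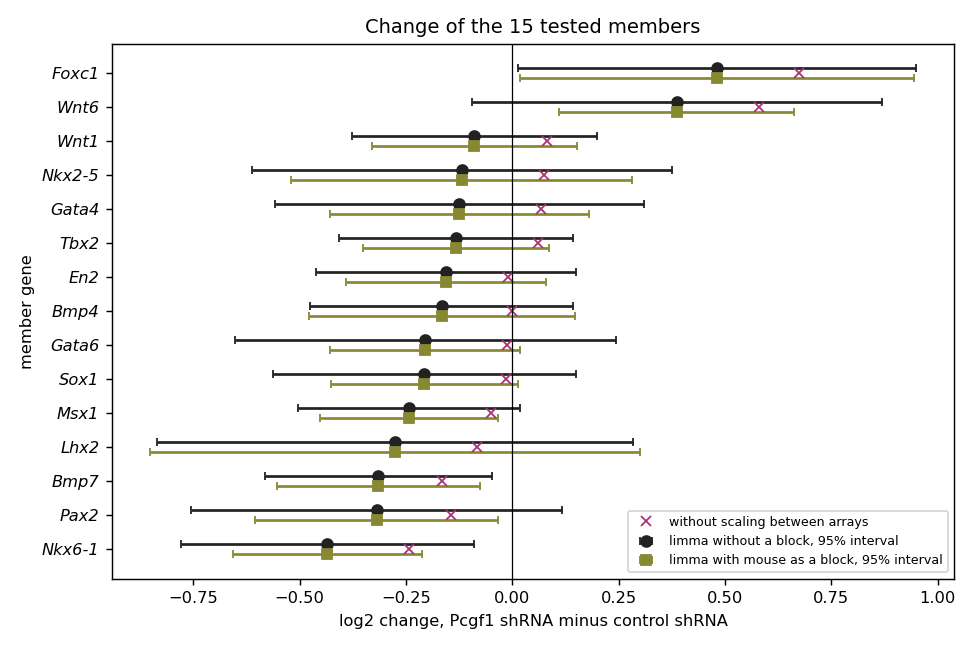
Log2 change (Pcgf1 shRNA minus control shRNA) of the 15 tested members with its 95% interval from limma, without a block (circles) and with mouse as a block (squares), and the change without scaling between arrays (crosses). Changes run from −0.43 (Nkx6-1) to 0.48 (Foxc1), and without scaling from −0.24 to 0.67.

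The 11 members above background on all 8 arrays were not selected through 1 group, and 0 of them passed. They were Pax2, Gata6, Sox1, Tbx2, Nkx6-1, Lhx2, Msx1, En2, Bmp7, Wnt1 and Wnt6, with signals of −5.06 to −2.13. Their median log2 change was −0.21, with 1 higher and 10 lower. Over the 16388 tested genes above background on all arrays it was 0.00, and 50.5% were higher. Those genes were not matched to the members for signal, so the shift is not shown to be particular to the members. Without scaling between arrays the median was −0.01, with 3 higher and 8 lower, while all those genes had a median of 0.19. The members' median was −0.16 with normexp, whose offset of 50 shrinks changes of dim probes, and −0.12 with quantile normalization. In the authors' value table, which comes from the same spot intensities and is no independent check, it was −0.21. For 10 of the 11 the upper end of the 95% interval was a 1.22-fold rise or less, or 1.57-fold without scaling. Wnt6 was the exception, with an upper end of 1.83-fold, or 2.00-fold without scaling.

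Among the ligands Wnt6, a Wnt protein of epithelia, was higher in 4 of 4 mice. Its log2 signal was −4.41, −4.61, −4.25 and −4.97 with the control shRNA and −4.05, −3.85, −4.10 and −4.68 with the Pcgf1 shRNA. The groups overlapped, since mouse 4 was low on both arrays, while before scaling they did not (21.3 to 30.4 against 32.9 to 46.9 in intensity). How many of all genes had separate groups before scaling was not counted. Before scaling, the tested genes above background on all arrays had a median log2 change of 0.19, which favours upward separation. The separation of Wnt6 before scaling is therefore not read as a result. The log2 change of Wnt6 was 0.39 (SE 0.21, 95% interval −0.09 to 0.87, limma adjusted p 0.524), with 0.56 and 0.22 on the 2 slides. With mouse as a block its 95% interval was 0.11 to 0.66 (limma adjusted p 0.109). The change stayed above 0 in all 17 fits (0.03, with normexp and its offset of 50, to 0.58) without passing in any. Bmp7, a BMP ligand of kidney and bone, was lower in 4 of 4 mice, at −4.62, −4.58, −4.16 and −4.40 against −4.68, −4.89, −4.72 and −4.73. On the scaled values Bmp7 was the 1 member of 15 whose groups did not overlap (7.16% of the genes tested did not). Its log2 change was −0.32 (SE 0.12, 95% interval −0.58 to −0.05, adjusted p 0.330), with −0.18 and −0.45 on the 2 slides, and before scaling the groups overlapped at intensities of 22.0 to 36.3 against 21.8 to 32.5. Wnt1, a ligand of the midbrain, read −4.47, −4.72, −4.48 and −4.86 against −4.69, −4.52, −4.74 and −4.94 (difference −0.09, limma adjusted p 0.831). Bmp4, which acts in mesoderm and early blood formation, read −5.11, −5.13, −4.88 and −4.96 against −5.13, −5.02, −5.04 and −5.56 (difference −0.17, limma adjusted p 0.675). The groups of both genes overlapped, and without scaling the differences were 0.08 and 0.00.

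**Figure D4:**
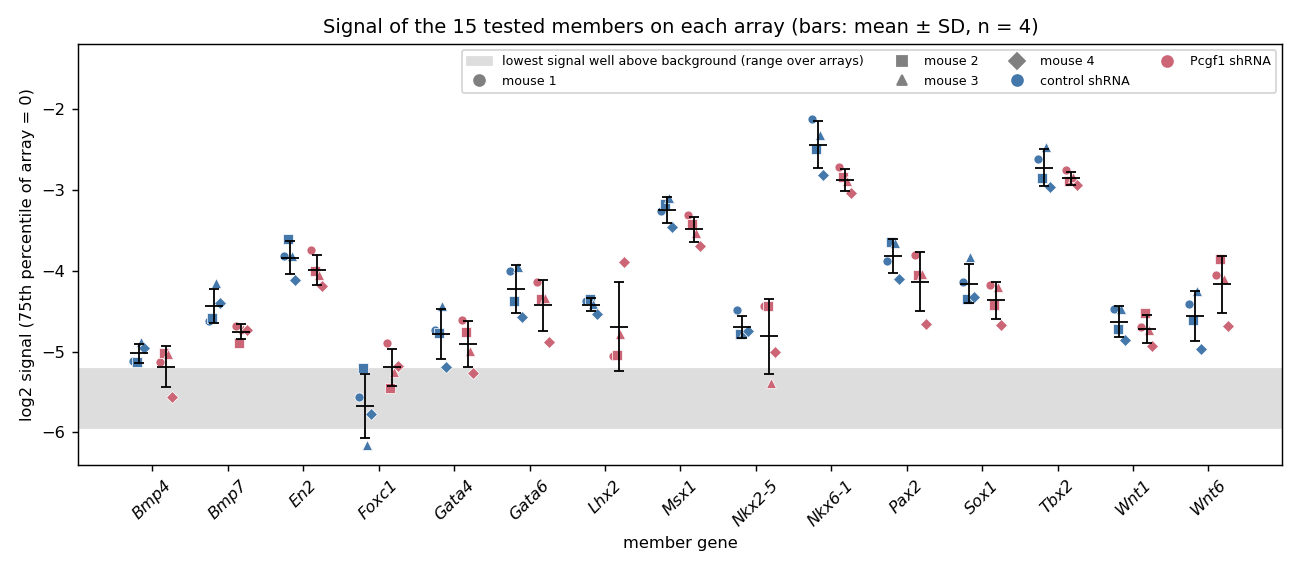
Log2 signal (75th percentile of the array at 0) of the 15 tested members on each array, by mouse (symbol) and group (blue, control shRNA; red, Pcgf1 shRNA), with bars for the mean ± SD (n = 4); the grey band spans the lowest signals called well above background, −5.94 to −5.22. Bmp7 is the gene whose groups do not overlap, and Foxc1 lies in or near the band; levels of different genes come from different probes and cannot be compared.

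The homeobox genes Nkx6-1 and Lhx2 gave the lowest p values under some settings. Nkx6-1, a factor of pancreatic beta cells and motor neurons (chromosome 5, 101659184 to 101664711), read −2.13, −2.50, −2.32 and −2.82 with the control shRNA and −2.72, −2.84, −2.90 and −3.04 with the Pcgf1 shRNA, lower in 4 of 4 mice, with groups that overlapped. Its log2 change was −0.43 (SE 0.15, 95% interval −0.78 to −0.09, limma adjusted p 0.290), with −0.47 and −0.40 on the 2 slides; it passed with array weights (−0.49, adjusted p 0.0431). Before scaling, the intensity in mice 2 and 4 was 91.9 and 100.0 with the control shRNA and 94.5 and 103.5 with the Pcgf1 shRNA, so in these mice the fall was seen on the scaled values only. Lhx2, a LIM homeobox factor of forebrain and hair follicle that can immortalise blood progenitors when forced on, read −4.38, −4.35, −4.42 and −4.54 against −5.06, −5.04, −4.79 and −3.89. It was lower in mice 1 to 3 and higher in mouse 4, and its log2 change of −0.28 (SE 0.24, adjusted p 0.708) became −0.58 without mouse 4 (adjusted p 0.0435).

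The remaining tested factors gave small differences, none of which passed. Msx1, a homeobox factor of limb and tooth, read −3.26, −3.17, −3.10 and −3.46 against −3.32, −3.42, −3.54 and −3.69. It was lower in 4 of 4 mice (log2 change −0.24, SE 0.11, limma adjusted p 0.455), and without scaling the change was −0.05. Pax2, of kidney and eye, read −3.88, −3.64, −3.66 and −4.10 against −3.80, −4.05, −4.04 and −4.66 (difference −0.32, limma adjusted p 0.563). The groups of both genes overlapped, and mouse 4 was the lowest in each group. Gata6 read −4.00, −4.37, −3.95 and −4.57 against −4.14, −4.35, −4.34 and −4.88 on its brightest probe (difference −0.20). Sox1, of neural progenitors, read −4.14, −4.35, −3.83 and −4.32 against −4.18, −4.42, −4.20 and −4.67 (difference −0.21). Tbx2, a T-box repressor, read −2.62, −2.85, −2.47 and −2.97 against −2.75, −2.89, −2.84 and −2.94 (difference −0.13, or 0.06 without scaling). In all 3 the groups overlapped, and the controls of mice 1 and 3 were the highest. En2, of the midbrain, read −3.82, −3.61, −3.82 and −4.11 against −3.75, −4.00, −4.05 and −4.19 (difference −0.16). Nkx2-5, of the heart, read −4.49, −4.78, −4.75 and −4.75 against −4.43, −4.44, −5.38 and −5.0 (difference −0.12), higher in mice 1 and 2 and lower in mice 3 and 4. Pax2, En2, Bmp4, Bmp7 and Wnt1 have probes spotted 10 times on each array. Across the 10 spots of the Pax2 probe the SD of log2 intensity was 0.15 to 0.55, by array. Between the 4 arrays of a group the SD was 0.21 and 0.37. The former is the spread of single spots, while each array value is a mean of 10 spots, so the SDs are not directly comparable.

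The other genes of these pathways were mostly present. Over all genes tested 0.596% passed as higher and 0.168% as lower, or 2.91% and 2.42% with mouse as a block. Of 9 measured PRC1.1 subunits 9 were above background on all arrays, 1 rose (Bcorl1) and 1 fell (Pcgf1), and with mouse as a block 2 rose, Bcorl1 and its paralogue Bcor. Of 14 tested subunits of canonical and other variant PRC1 and 11 of PRC2, 0 passed with or without the block, with median changes of 0.26 and 0.06, and the 2 H3K27 demethylases (Kdm6a −0.11, Kdm6b 0.30) did not pass either. Of the 12 tested BMP receptors, SMADs and Id genes 1 rose, Acvr2b, an activin receptor that also serves BMPs (from −2.80 ± 0.04 to −2.25 ± 0.14, SD, n = 4; log2 change 0.55, limma adjusted p 0.0415). With the block Smad5, which carries BMP signals (0.37, adjusted p 0.0364), rose too and Id3, a BMP target (−0.65, adjusted p 0.0377), fell. The BMP receptor genes Bmpr1a and Bmpr1b were above background on 0 arrays. The median change of this list was 0.17, where that of all genes tested was 0.00.

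Of 15 tested Wnt receptors and mediators 0 passed without the block and 5 rose with it, where 2.91% of all genes tested rose with the block. These were the receptor genes Fzd4 (0.61, limma adjusted p 0.0412), Fzd7 (0.43, 0.0292) and Fzd8 (0.65, 0.0257), the coreceptor gene Lrp5 (0.61, 0.0457) and Tcf7l1, a repressor of Wnt targets (0.91, 0.0294). Without the block their adjusted p values were 0.0900 to 0.273. Axin2 and Lef1, which are targets of the pathway, and Nkd1 were above background on 0 of 8 arrays, and the median change of the list was 0.13.

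Of 16 relatives of the members that have a role in blood, 13 were above background on all arrays and 1, Pax5, on 0. Sox4, a SOX factor of progenitors, rose (0.86, limma adjusted p 0.0206), and Gata3, of T cells and stem cells, rose with mouse as a block (from −2.88 ± 0.30 to −1.99 ± 0.32, SD, n = 4; log2 change 0.89, adjusted p 0.0149, or 0.0958 without the block). The other 11 tested genes, among them Gata1 (−0.67), Gata2 (0.11), Hhex (−0.05) and Lyl1 (0.00), did not pass, and the median of the list was 0.00.

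**Figure D5:**
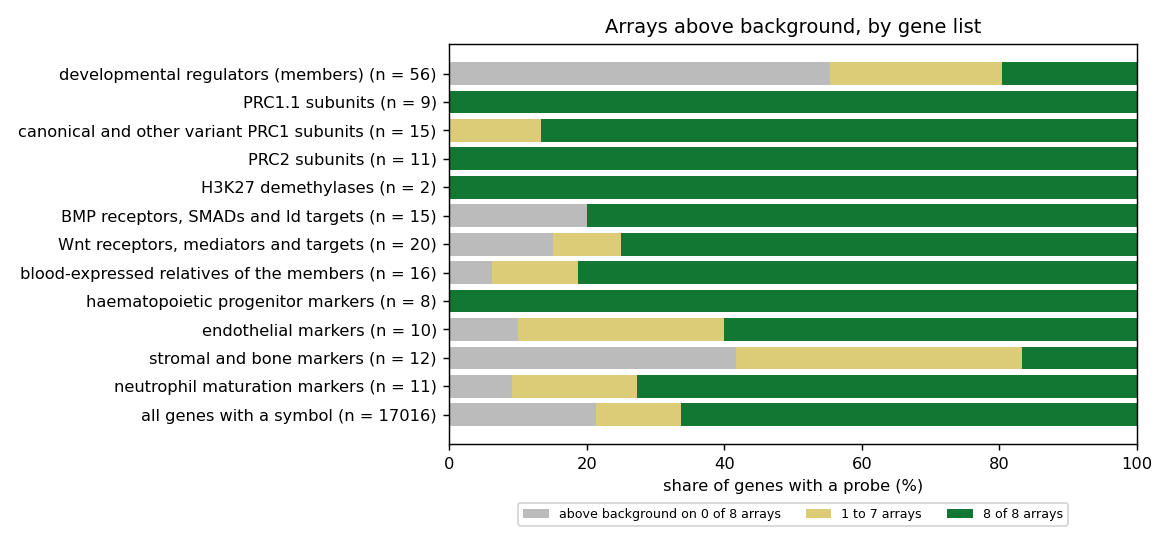
Share of genes with a probe that were above background on 0, on 1 to 7 and on 8 of the 8 arrays, for the developmental regulators, the pathway and marker lists, and all genes with a symbol (number of genes in brackets). The developmental regulators have 55.4% on 0 arrays, where all genes with a symbol have 21.3%.

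Several members are normally expressed in cells that bone marrow cultures can hold besides blood cells, such as Foxc1 in stroma and Sox17 in endothelium. In bulk samples fewer cells of a type and less RNA per cell cannot be told apart. Of 12 stromal and bone markers 5 were above background on 0 arrays, among them Col3a1, Dcn and Pdgfra, 2 were on all 8 (Col1a2 and Pdgfrb), and the summed signal of the list, in units of each array's 75th percentile, was 0.674 to 0.830 with the control shRNA and 0.725 to 0.960 with the Pcgf1 shRNA. Of its 3 tested genes Pdgfrb rose with mouse as a block (0.69, limma adjusted p 0.0208), while Col1a2 (−0.34, lower in 4 of 4 mice) and Sp7 (−0.25) did not pass, and the median was −0.25. Of 10 endothelial markers 6 were above background on all 8 arrays, several of which megakaryocytes and progenitors share, while Cdh5, the endothelial cadherin, was above background on 0. Their sum was 17.4 to 22.6 and 11.3 to 25.8, most of it from Vwf and Egfl7 (mean log2 signal 3.40 and 2.60 in the controls). Pecam1 (0.51, limma adjusted p 0.0313) and Tie1 (0.36, 0.0489) rose with the block. The other 6 tested endothelial markers did not pass, among them Kdr (−0.53, lower in 4 of 4 mice), Vwf (−0.49), Esam (−0.23), Erg (0.83) and Tek (0.54), and the median was 0.19. Of 10 tested markers of neutrophil maturation 4 fell (Ngp, Fcnb, Fpr1 and Fpr2), or 9 with the block. The sum of the list was 86.0 to 235 with the control shRNA and 12.1 to 45.8 with the Pcgf1 shRNA. Most of this sum came from S100a9 and S100a8, the brightest genes of the list (mean log2 signal 6.66 and 4.64 in the controls). The part of these shifts in the values of the developmental regulators was not tested.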

How the data were processed

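Messenger RNA was measured on 8 one-colour Agilent arrays, 4 per group. Per the file headers and the submitters' processing notes, the deposited spot files come from Agilent Feature Extraction 10.1 and hold an intensity per spot, corrected for local background and spatial trend but not scaled between arrays, and detection flags. In the value table deposited by the authors, values are log2 and each probe has a median of 0 over the arrays (within 0.001 for 100% of probes). Column differences matched those of the spot files over 10070 bright probes (slope 1.00), so scale and direction are known and 1 shift per array is not. Medians by column were 0.05 and 0.10 (mouse 1, controls first), 0.11 and −0.05, 0.10 and −0.11, and −0.13 and −0.20 (mouse 4). The value table served as an alternative, but it comes from the same spot intensities and is no independent check.

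Log2 intensities were shifted to a 75th percentile of 0 on each array. Control spots and 242 values of non-uniform spots were left out and spots of a probe were averaged. Of 41174 probes 24375 were named by RefSeq accession from an annotation of GRCm38.p6. A gene was tested on its brightest probe if that probe was above background throughout 1 or both groups. The test was that of limma (version 3.58.1, R 4.3.3), two-sided, with p adjusted by Benjamini-Hochberg across the tested genes. Both cultures of a mouse share the animal, which pairs them; with group means removed their arrays correlated across genes with r of 0.44, 0.48, 0.41 and 0.64. The mouse block, the slide, the filter, background correction (normexp, on median spot and background intensities), scaling, array weights, the choice of probe, the detection flag, the value table and each left-out mouse were alternatives. Normexp was run with an offset of 50. The fit without a block was tried on simulated data with independent values and no effect of mouse. That trial did not cover the pairing of the cultures or the fit with the block. Text was written for every member, and from each pathway list for the genes that passed with or without the block; others are given as examples chosen after their values were seen. The members and lists were chosen with earlier results of these data known.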

Additional observations from a re-analysis of the deposited data

Results flagged for a closer look

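Within groups of 4 arrays, 50 groups of values from the 25 members detected on at least 1 array were searched for a lone sample far from the other 3, and 2 were found; chance gives about 1 in 20. Neurog2 read −1.84 on the control array of mouse 1, where the other control arrays read −7.16 to −6.93. Nkx2-5 read −4.49 on the control array of mouse 1, where the others read −4.78 to −4.75.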

How the results depend on the processing

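Across 17 fits 0 members passed as higher, and 1 passed as lower with array weights (Nkx6-1) and 1 without mouse 4 (Lhx2), so that leaving out a mouse gave 0 to 1 member lower. With mouse as a replicate block 921 genes passed against 132 without it, and it changed no call of a member or of Pcgf1. The count of genes was 0 without the filter on dim probes, with or without the block, 0 with probes above background on at least 1 array, 77 with normexp, 962 with array weights, 87 without scaling, and 0 to 339 when a mouse was left out. Pcgf1 kept its fall but lost its call without the filter on dim probes (−1.36, adjusted p 0.104, or 0.190 with the block), with probes above background on at least 1 array (−1.36, 0.0513) and without scaling (−1.16, 0.0634), and ranged from −1.38 to −1.34 when a mouse was left out. With the flag for positive and significant spots 0 members were gained (0.394% of genes with a symbol), 2 lost (Hand2 and Bmp2; 0.923%), 9 of 56 undetected (6.29%) and 20 detected on all arrays (76.3%). With a signal at least 1 log2 unit above the lowest detected signal 0 were gained (0.176%), 2 lost (Lhx2 and Bmp7; 0.441%) and 5 detected on all arrays (62.8%). With a mouse left out and the threshold for gained genes loosened to 2 of 3 arrays, 1 to 3 were gained. The alternatives without scaling, with the block but no filter, and with the 1 log2 unit margin were chosen after seeing the data. Depth is bounded by the background of the scanner: a gene below it is not shown to be off.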
